A study of Mus musculus with 21 samples.

Results

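Aminoacyl-tRNA synthetases are the enzymes that attach each amino acid to its own transfer RNA, the step that makes amino acids usable by the ribosome. Their genes were taken from the array by symbol: a single capital letter followed by ars and an optional ending, plus *Eprs*, with the transcript cluster of the highest mean over all arrays for each symbol. The rule found 35 genes among the 19505 genes measured. Of these, 18 have symbols without a final 2, and 17 have symbols that end in 2.

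RNA was profiled on 21 Affymetrix arrays from CD8+ T cells of wildtype mice. Splenic T cells were stimulated with beads against CD3 and CD28 and grown in complete RPMI medium with 2-ME. For 48 h the cells were in fresh medium (the control), in filtered supernatant of WEHI-3B cells (AML medium), or in filtered supernatant of dendritic cells grown from bone marrow (DC medium), with 7 biological replicates each. The WEHI-3B line is a murine myelomonocytic leukaemia and is the only model of acute myeloid leukaemia (AML) used. The supernatants were collected from both cell types in the same complete RPMI, and the CD8+ cells were separated again magnetically before RNA was extracted. Each array therefore reports bulk RNA, in which fewer cells of a type cannot be told apart from less RNA per cell.

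In mammals most synthetases exist as a cytosolic and a mitochondrial enzyme encoded by different nuclear genes, and the mitochondrial symbol usually carries the final 2. *Gars* and *Kars* each encode both forms, *Qars* has no mitochondrial counterpart, and *Tarsl2* encodes a cytosolic paralogue of the threonyl enzyme despite its ending. Several cytosolic enzymes sit together in a multisynthetase complex, held by scaffold proteins encoded by *Aimp1*, *Aimp2* and *Eef1e1*. When amino acids run short, uncharged transfer RNA activates the kinase GCN2, translation of the transcription factor ATF4 rises, and ATF4 is known to bind many cytosolic synthetase genes together with genes of amino acid supply. Activated T cells need charged transfer RNA for the protein synthesis that precedes division.

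The letters known to be read by ATF4-type factors, the amino acid response element, were searched as TGATG, any base, then AA, on both strands of RefSeq promoter windows of build GRCm38.p6, from 250 bases before to 50 after the gene start. A window was present for 26 of 35 genes, and not for *Cars*, *Hars*, *Hars2*, *Lars*, *Nars*, *Pars2*, *Rars*, *Vars* and *Wars*. The element was found in 4 of 11 windows of genes without a final 2 (36.4%) and in 0 of 15 of genes ending in 2, against 4.51% of all 27025 windows and 3.95% of the 15691 windows of measured genes. The following lines show 120 bases of these 4 genes and of *Mars1*, the synthetase gene with the largest difference between AML and fresh medium, in which the element was not found. Each runs 5′ to 3′ from 100 bases before to 20 bases after the start, and capitals mark the element or its reverse complement.
Gars, chr6:55037901-55038020, + strand: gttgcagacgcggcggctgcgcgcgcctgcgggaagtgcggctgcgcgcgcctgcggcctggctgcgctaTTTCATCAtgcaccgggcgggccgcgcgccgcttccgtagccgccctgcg
Iars, chr13:49682030-49682149, + strand: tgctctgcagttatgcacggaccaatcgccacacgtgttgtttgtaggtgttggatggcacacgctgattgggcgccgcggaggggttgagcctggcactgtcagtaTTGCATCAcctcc
Tars, chr15:11399639-11399758, - strand: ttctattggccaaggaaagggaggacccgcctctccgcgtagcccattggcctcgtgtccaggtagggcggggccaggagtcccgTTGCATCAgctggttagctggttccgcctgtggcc
Yars, chr4:129189803-129189922, + strand: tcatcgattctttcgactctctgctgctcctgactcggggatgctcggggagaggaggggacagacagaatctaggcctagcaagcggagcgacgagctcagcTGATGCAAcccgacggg
Mars1, chr10:127311767-127311886, - strand: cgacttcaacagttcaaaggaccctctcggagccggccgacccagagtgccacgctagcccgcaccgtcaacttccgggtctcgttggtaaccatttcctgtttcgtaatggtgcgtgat
Counted from 1 at the first base of the gene, with -1 for the base before it, the match ran from -30 to -23 in *Gars*, from 8 to 15 in *Iars*, from -15 to -8 in *Tars* and from 4 to 11 in *Yars*. A match is a description of letters, and binding was not measured. The E-box CACGTG, read by MYC and related factors, was in 3 of 11 windows without a final 2 (*Farsb*, *Iars* and *Tars*) and in 1 of 15 ending in 2 (*Ears2*). It was in 8.09% of all windows and in 9.26% of the windows of measured genes. The ETS core CGGAAG was in 6 of 11 (*Farsa*, *Gars*, *Kars*, *Mars1*, *Qars* and *Sars*) and in 8 of 15 (*Cars2*, *Ears2*, *Iars2*, *Mars2*, *Nars2*, *Rars2*, *Sars2* and *Wars2*). The shares were 18.8% of all windows and 24.2% of the windows of measured genes. Neither shared a base with the response element in the 4 genes shown.

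The arrays were alike in overall level, with array medians between 5.35 and 5.52 on the log2 scale. The CD8 T cell genes *Cd3e*, *Cd8a* and *Cd8b1* had array means of 11.64 to 11.85 in fresh, 11.65 to 11.82 in AML and 11.65 to 11.86 in DC medium, and the 10 markers of myeloid, dendritic and leukaemia cells 3.99 to 4.18, 3.99 to 4.19 and 3.94 to 4.21. A label field names reticular stromal cells, whose 3 markers were at 4.25 to 4.54 on all arrays. In every medium replicates 1 to 3 differed from replicates 4 to 7: the first component of the residuals over all genes, 22.1% of their variance, was above 0 in replicates 1 to 3 of each medium and below 0 in replicates 4 to 7, apart from AML replicate 7 at 0.0007. The labels do not explain these sets, which were noticed after the data were seen. Values within each set are therefore given beside the pooled ones, and the difference between sets was not tested.

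The comparison of AML with fresh medium asked whether transcripts of CD8+ T cells differ in supernatant of leukaemia cells. What those cells released into the medium and what they used up from it cannot be told apart in this design. In the fit without covariates no synthetase gene passed the test. The largest differences, up to 1.37-fold, were those of *Mars1*, *Lars*, *Farsb*, *Yars* and *Iars*, all cytosolic and all higher in AML medium on average, with AML and fresh arrays overlapping for each. With limma, 0 of 35 synthetase genes had an adjusted p under 0.05, where 2.77% of all genes did (541 of 19505). At an unadjusted p under 0.05 there were 9 of 35 (25.7%), against 15.9% of all genes. With replicates 1 to 3 and 4 to 7 as a block, an alternative added after the data were seen, 4 of 35 passed, all higher, where 5.26% of all genes did: *Lars* (adjusted p = 0.024), *Mars1* (0.0299), *Farsb* (0.0486) and *Iars* (0.049). For the 18 genes without a final 2, 13 differences were above and 5 below 0, with a median of 0.18 on the log2 scale and a range of -0.13 to 0.46. For the 17 ending in 2, 7 were above and 10 below 0, with a median of -0.03 and a range of -0.22 to 0.29, and without the cytosolic *Tarsl2* the median was -0.02. The median difference over all genes was -0.01. With arrays centred on their medians, the medians of the 2 groups were 0.20 and -0.0027. No synthetase gene had all 7 AML arrays above or below all 7 fresh arrays, where 0.795% of all genes did.

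**Figure D1:**
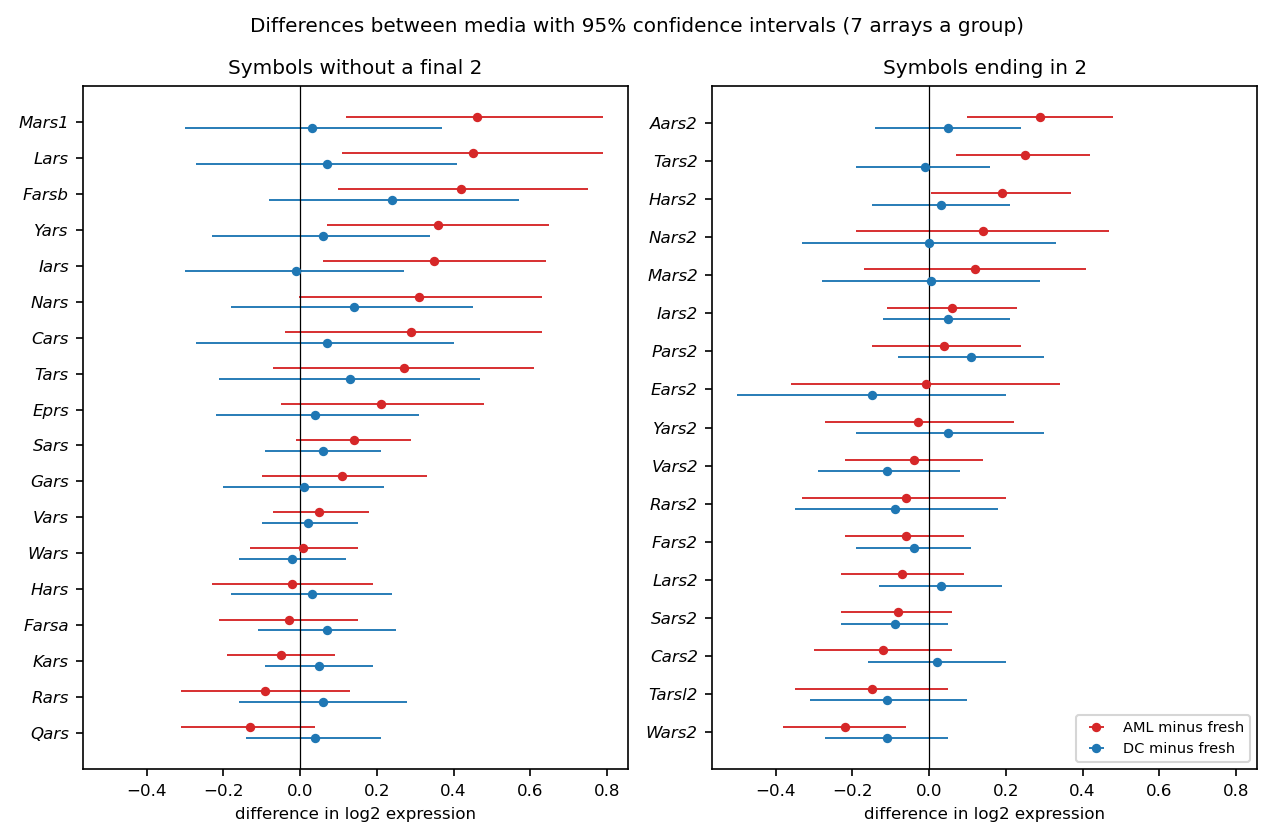
Differences in log2 expression from fresh medium for the 18 synthetase genes without a final 2 (left) and the 17 ending in 2 (right), in AML medium (red) and DC medium (blue). Points are limma estimates from 7 arrays a group and bars are 95% confidence intervals. The AML estimates run from -0.13 (*Qars*) to 0.46 (*Mars1*) on the left and from -0.22 (*Wars2*) to 0.29 (*Aars2*) on the right.

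Among the 7 enzymes of the multisynthetase complex that the rule found, 4 were higher and 3 lower in AML than in fresh medium, with a median difference of 0.21. *Mars1* encodes the methionyl enzyme, which also charges the initiator transfer RNA. Its log2 level was 7.15 at the lowest, 7.40 at the median and 7.74 at the highest of the fresh arrays, 6.97, 7.72 and 7.93 in DC medium, and 7.60, 7.90 and 8.45 in AML medium. Of the AML arrays, 4 of 7 lay above all fresh arrays, and AML replicates 3, 6 and 7, at 7.60, 7.67 and 7.65, lay among them. The mean was 7.46 ± 0.24 (SD, n = 7) in fresh and 7.91 ± 0.31 in AML medium, a difference of 0.46 (SE 0.16, 95% interval 0.12 to 0.79, adjusted p = 0.137). *Lars* encodes the leucyl enzyme, which is also known as a leucine sensor for mTORC1. It ranged from 7.85 to 8.51 around a median of 8.19 in fresh, from 7.85 to 8.70 around 8.49 in DC, and from 8.23 to 9.27 around 8.62 in AML medium. Again 4 of 7 AML arrays exceeded every fresh array, AML replicate 7 was at 8.23, and the difference was 0.45 (SE 0.16, interval 0.11 to 0.79, adjusted p = 0.147). *Iars*, the isoleucyl enzyme, ranged from 9.21 to 9.84 (median 9.45) in fresh, 9.03 to 9.86 (median 9.65) in DC and 9.54 to 10.22 (median 9.78) in AML medium. Its difference was 0.35 (SE 0.14, interval 0.06 to 0.64, adjusted p = 0.195), with 3 of 7 AML arrays above all fresh ones.

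The other enzymes of the complex differed less. *Eprs*, a fused enzyme for glutamate and proline, ranged from 10.06 to 10.65 in fresh and from 10.33 to 10.97 in AML medium, a difference of 0.21 (adjusted p = 0.449). *Kars* (lysine), *Rars* (arginine) and *Qars* (glutamine) differed by -0.05, -0.09 and -0.13, with intervals that included 0. *Qars* was at 9.96 to 10.26 in fresh and 10.12 to 10.24 in DC medium, and at 9.61 to 10.28 in AML medium, where replicates 4 and 5 were the lowest at 9.76 and 9.61. The same 2 arrays were the highest AML arrays for *Mars1* (8.11 and 8.45), *Lars* (9.04 and 9.27) and *Iars* (10.06 and 10.22). None of the scaffold genes passed: the difference was -0.07 (SE 0.09, adjusted p = 0.788) for *Aimp1*, -0.09 (SE 0.14, adjusted p = 0.833) for *Aimp2* and 0.23 (SE 0.16, adjusted p = 0.522) for *Eef1e1*.

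Outside the complex, 9 of 12 cytosolic enzymes, *Tarsl2* included, were higher in AML than in fresh medium, with a median difference of 0.13. *Farsb* encodes the beta subunit of the phenylalanyl enzyme. It ranged from 6.78 to 7.83 (median 7.40) in fresh and from 7.47 to 8.44 (median 7.79) in AML medium, with 3 of 7 AML arrays above all fresh arrays. In DC medium the lowest array was at 7.15 and the median at 7.77, and all 7 arrays were below AML replicate 4 at 8.05. The difference between AML and fresh medium was 0.42 (SE 0.16, interval 0.10 to 0.75, adjusted p = 0.163). *Farsa*, which encodes the alpha subunit of the same enzyme, differed by -0.03 (adjusted p = 0.906), with 7.51 to 7.97 in fresh and 7.44 to 7.84 in AML medium. The 2 subunit genes of 1 enzyme thus had estimates of opposite sign, and the difference between them was not tested. *Yars*, the tyrosyl enzyme, ranged from 8.82 to 9.32 (median 9.13) in fresh, 8.72 to 9.53 (median 9.23) in DC and 9.12 to 9.91 (median 9.44) in AML medium. Its difference was 0.36 (SE 0.14, interval 0.07 to 0.65, adjusted p = 0.181), with 4 of 7 AML arrays above all fresh ones.

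*Nars*, *Cars* and *Tars* charge asparagine, cysteine and threonine. *Nars* ranged from 8.28 to 8.92 (median 8.59) in fresh, 8.11 to 9.13 (median 8.98) in DC and 8.57 to 9.30 (median 8.96) in AML medium, a difference of 0.31 between AML and fresh (SE 0.15, adjusted p = 0.322). *Cars* ranged from 8.06 to 8.86 (median 8.60), 7.96 to 9.01 (median 8.87) and 8.61 to 9.08 (median 8.77), a difference of 0.29 (SE 0.16, adjusted p = 0.399). *Tars* ranged from 8.64 to 9.33 (median 8.76), 8.50 to 9.51 (median 9.33) and 8.83 to 9.64 (median 9.18), a difference of 0.27 (SE 0.16, adjusted p = 0.452). For all 3 the DC arrays spread over the widest range, and the groups overlapped. *Sars* (serine) and *Gars* (glycine) differed by 0.14 and 0.11, *Vars* (valine) by 0.05, *Wars* (tryptophan, an interferon-inducible gene) by 0.009 and *Hars* (histidine) by -0.02. *Tarsl2* was at 5.91 to 6.49 (median 6.28) in fresh, 5.89 to 6.45 (median 6.03) in DC and 5.81 to 6.25 (median 6.14) in AML medium, a difference of -0.15 (SE 0.10, adjusted p = 0.496).

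**Figure D2:**
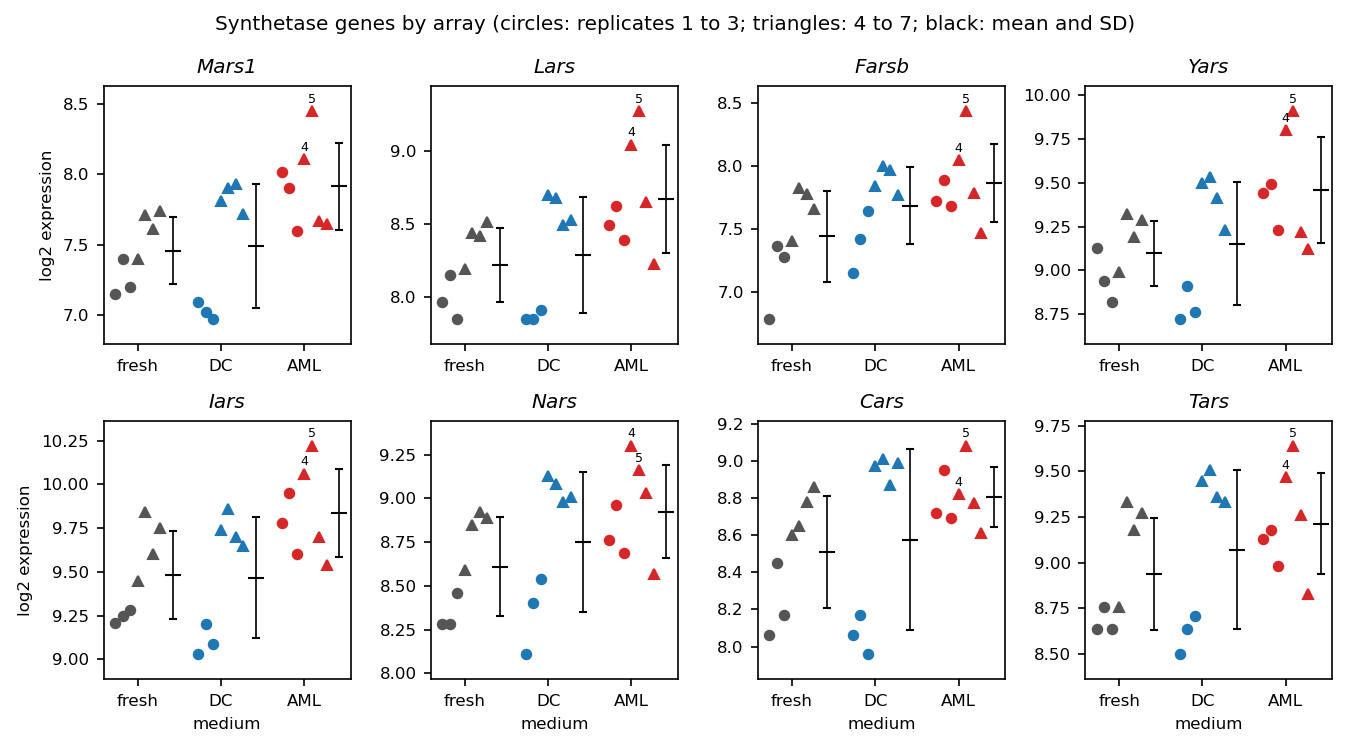
Log2 expression on each array for the 8 genes without a final 2 with the largest differences between AML and fresh medium, in fresh (grey), DC (blue) and AML medium (red). Circles are replicates 1 to 3, triangles replicates 4 to 7, numbers mark AML replicates 4 and 5, and black bars give the mean and SD of 7 arrays. In DC medium the circles lie below the triangles for all 8 genes, as for *Mars1*, where replicate 3 is at 6.97 and replicate 6 at 7.93.

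Among the genes ending in 2, which apart from *Tarsl2* encode mitochondrial enzymes, the differences ran from -0.22 to 0.29. *Aars2*, the alanyl enzyme, was at 5.56, 5.84 and 6.10 (lowest, median, highest) in fresh, 5.76, 5.93 and 6.06 in DC and 5.96, 6.14 and 6.46 in AML medium. Its 4 AML arrays of replicates 4 to 7, from 6.14 upwards, lay above all fresh arrays, and the difference of 0.29 (SE 0.09, interval 0.10 to 0.48, adjusted p = 0.0932) had the smallest adjusted p of the 35 genes. *Tars2*, the threonyl enzyme, was at 7.12, 7.51 and 7.72 in fresh, 7.38, 7.40 and 7.68 in DC and 7.51, 7.64 and 7.97 in AML medium, a difference of 0.25 (SE 0.09, interval 0.07 to 0.42, adjusted p = 0.126). *Wars2*, the tryptophanyl enzyme, had the largest negative difference. It was at 6.08, 6.20 and 6.43 in fresh, 5.95, 6.11 and 6.23 in DC and 5.86, 5.97 and 6.31 in AML medium, where 5 of 7 arrays lay below all fresh arrays, and differed by -0.22 (SE 0.08, interval -0.38 to -0.06, adjusted p = 0.131). *Hars2*, the histidyl enzyme, was at 6.02, 6.30 and 6.53 in fresh, 6.09, 6.29 and 6.47 in DC and 6.28, 6.37 and 6.73 in AML medium, a difference of 0.19 (SE 0.09, adjusted p = 0.295).

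The remaining mitochondrial enzymes had estimates within 0.15 of 0. *Nars2*, *Mars2*, *Iars2* and *Pars2* differed by 0.14, 0.12, 0.06 and 0.04. *Ears2*, *Yars2*, *Vars2*, *Rars2* and *Fars2* differed by -0.0069, -0.03, -0.04, -0.06 and -0.06, and *Lars2*, *Sars2* and *Cars2* by -0.07, -0.08 and -0.12. *Ears2*, the glutamyl enzyme, was uneven, with fresh arrays between 4.47 and 5.83 and an interval of -0.36 to 0.34. Set side by side for the same amino acid, the cytosolic difference exceeded the mitochondrial one in 14 of 16 pairs. The gap was widest for leucine, at 0.53 (*Lars* 0.45, *Lars2* -0.07), and only 0.03 for *Farsa* with *Fars2* and for *Tars* with *Tars2*. The exceptions were histidine (*Hars* -0.02, *Hars2* 0.19) and arginine (*Rars* -0.09, *Rars2* -0.06). These pairs are not independent, since *Eprs* and *Fars2* each enter more than once, and no test was made over them. Mitochondrial genes mostly read lower, as *Nars2* (fresh mean 6.00) against *Nars* (8.61), though *Fars2* (7.50) did not against *Farsb* (7.44). RMA compresses differences between low values, and the part of this in the gaps was not tested.

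In DC medium the differences from fresh medium ran from -0.15 to 0.24 over the 35 synthetase genes. With limma, 0 of 35 passed and 0 of 35 had an unadjusted p under 0.05, where 0.0% of all genes passed and 6.41% had an unadjusted p under 0.05. Of the genes without a final 2, 16 of 18 were above 0 with a median of 0.05, and all 18 when arrays were centred on their medians. The largest difference was *Farsb* at 0.24 (SE 0.16, adjusted p = 0.858). The genes ending in 2 had a median of -0.0011 (0.03 with arrays centred), with *Ears2* lowest at -0.15 (SE 0.17) and *Pars2*, the prolyl enzyme, highest at 0.11 (SE 0.09).

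The direct comparison of AML with DC medium shares its AML arrays with the comparison with fresh medium, so the 2 are not independent. With limma, 0 of 35 genes passed, against 2.39% of all genes, and 6 of 35 (17.1%) had an unadjusted p under 0.05, against 14.3% of all genes. With the 2 sets of replicates as a block 1 of 35 passed, *Iars* at 0.37 (SE 0.10, adjusted p = 0.047), where 4.09% of all genes did. The median was 0.12 for the genes without a final 2 and 0.01 for those ending in 2. The first of these changed sign between the sets of replicates. For the genes without a final 2 it was 0.30 within replicates 1 to 3, with 15 of 18 above 0. Within replicates 4 to 7 it was -0.04, with 7 above and 11 below 0. For the genes ending in 2 the medians were 0.11 and -0.0073. *Mars1* differed by 0.42 (SE 0.16, adjusted p = 0.198), *Lars* by 0.39 (SE 0.16, adjusted p = 0.26) and *Iars* by 0.37 (SE 0.14, adjusted p = 0.195). *Tars2* differed by 0.26 (SE 0.09, adjusted p = 0.114), and its smallest AML value, 7.51, lay above 6 of the 7 DC arrays. *Qars* differed by -0.17 (SE 0.08, adjusted p = 0.378), with 4 of 7 AML arrays below all DC arrays.

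Both groups of synthetase genes were mostly higher in replicates 4 to 7 in every medium. Of the genes without a final 2, 17 of 18 were higher in replicates 4 to 7 than in replicates 1 to 3 in DC medium, with a median difference of 0.48. In fresh medium 16 of 18 were, with a median of 0.33, and in AML medium 16 of 18, with a median of 0.13. Over all genes the medians were -0.02 in fresh, -0.00032 in AML and -0.02 in DC medium. In DC medium 15 of these 18 genes had all 4 later replicates above all 3 earlier ones, where 13.6% of all genes did. The count was 8 of 18 in fresh medium (7.74% of all genes) and 3 of 18 in AML medium (4.64% of all genes). For *Mars1* the DC arrays were at 6.97 to 7.09 in replicates 1 to 3 and at 7.72 to 7.93 in replicates 4 to 7, with nothing between. Of the 17 genes ending in 2, 13 in fresh, 15 in AML and 13 in DC medium were higher in replicates 4 to 7, with medians of 0.10, 0.16 and 0.25. Those with all later replicates above numbered 7 in DC, 2 in fresh and 5 in AML medium. *Sars2*, the seryl enzyme, had all of them below in DC medium, as 11.2% of all genes did.

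Averaged per array and set against the mean of fresh medium, the 18 genes without a final 2 were at -0.14 ± 0.07 (SD, n = 3) in fresh replicates 1 to 3 and 0.11 ± 0.10 (n = 4) in fresh replicates 4 to 7. In DC medium they were at -0.21 ± 0.05 and 0.26 ± 0.05, and in AML medium at 0.10 ± 0.07 and 0.23 ± 0.17. The AML arrays of replicates 1 to 3, at 0.12, 0.17 and 0.03, thus lay above the fresh and DC arrays of the same numbers, which lay between -0.27 and -0.07. In replicates 4 to 7 the DC arrays, at 0.20 to 0.32, lay inside the range of the AML arrays, 0.0075 to 0.41. The 17 genes ending in 2 were at -0.07 ± 0.03 and 0.05 ± 0.09 in fresh, -0.15 ± 0.02 and 0.07 ± 0.02 in DC and -0.09 ± 0.04 and 0.09 ± 0.06 in AML medium, with no overlap of the 2 sets in DC and in AML medium.

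**Figure D3:**
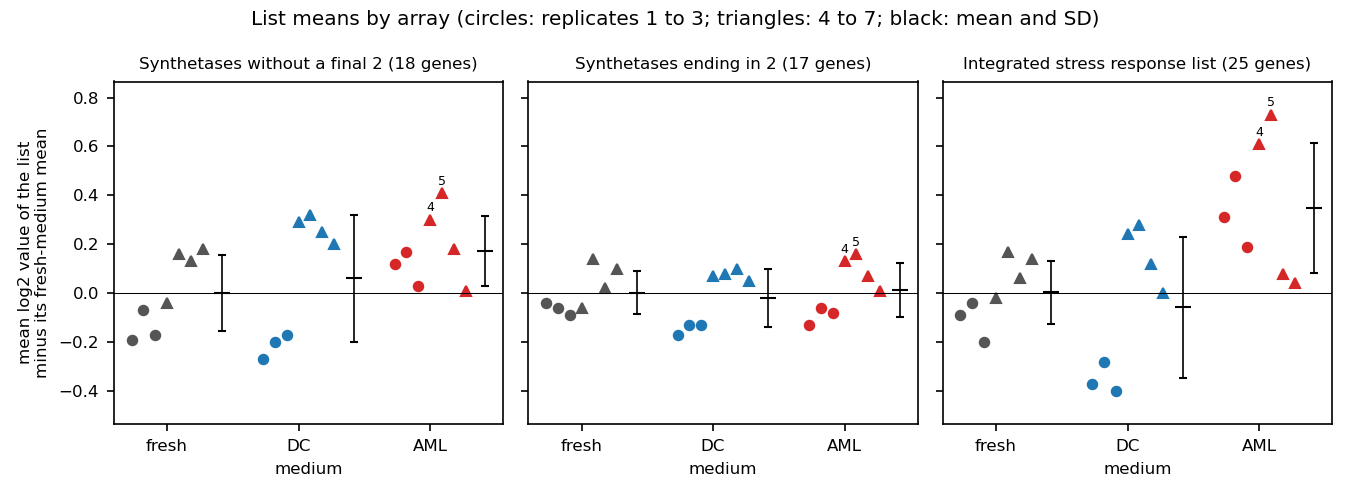
Mean log2 value per array, minus its average in fresh medium, for the 18 synthetase genes without a final 2 (left), the 17 ending in 2 (middle) and 25 other genes of the integrated stress response (right). Circles are replicates 1 to 3, triangles replicates 4 to 7, numbers mark AML replicates 4 and 5, and black bars give the mean and SD of 7 arrays. On the left the DC circles lie at -0.27 to -0.17 and the DC triangles at 0.20 to 0.32.

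Within replicates 1 to 3, with 3 arrays a group, 4 of 35 synthetase genes passed in AML against fresh medium, all higher, where 1.92% of all genes passed and 1.13% passed as higher. They were *Cars* (0.56, SE 0.12, adjusted p = 0.0411), *Iars* (0.53, SE 0.11, adjusted p = 0.0311), *Lars* (0.51, SE 0.10, adjusted p = 0.0332) and *Mars1* (0.59, SE 0.12, adjusted p = 0.0328), the enzymes for cysteine, isoleucine, leucine and methionine. The set was chosen after the data were seen, so these calls describe it. In the same 3 replicates 11 of 35 genes had all AML arrays above all fresh arrays, where 10.6% of all genes did: *Cars*, *Eprs*, *Farsb*, *Iars*, *Lars*, *Mars1*, *Nars*, *Sars*, *Tars*, *Yars* and the mitochondrial *Tars2*. *Ears2* and *Wars2* had all 3 below, as did 10.7% of all genes. Against DC medium 6 of 35 passed (*Cars*, *Iars*, *Lars*, *Mars1*, *Tars* and *Yars*; 1.63% of all genes), with *Mars1* at 0.81 (SE 0.12, adjusted p = 0.00514).

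Within replicates 4 to 7, with 4 arrays a group, 0 of 35 passed in AML against fresh medium (limma, where 0.164% of all genes passed), and 4 of 35 had an unadjusted p under 0.05, against 16.1% of all genes. The median of the genes without a final 2 was 0.13, against 0.22 within replicates 1 to 3. Against DC medium 0 of 35 passed there, where 0.22% of all genes did, and 7 of 35 had an unadjusted p under 0.05, against 16.2% of all genes. All AML arrays lay above all DC arrays for *Aars2*, as for 3.91% of all genes. They lay below all DC arrays for *Cars2*, *Kars* and *Rars*, as for 4.71% of all genes. Between AML and fresh medium *Lars* differed by 0.41 (SE 0.17), *Mars1* by 0.36 (SE 0.15) and *Cars* by 0.10 (SE 0.10). *Aars2*, at 0.40 (SE 0.12, adjusted p = 0.159), was the only synthetase gene with all AML arrays above all fresh arrays there, as for 2.59% of all genes. DC against fresh medium changed sign between the sets: the genes without a final 2 had a median of -0.06 with 3 of 18 above 0 in replicates 1 to 3, and 0.13 with 18 of 18 above 0 in replicates 4 to 7. *Cars*, *Kars*, *Nars*, *Rars*, *Sars* and *Tars* then had all 4 DC arrays above all 4 fresh arrays, as 2.91% of all genes did, and 0 of 35 passed in either set, where 0.0% of all genes did. At an unadjusted p under 0.05 there were 2 of 35 in replicates 1 to 3 and 1 of 35 in replicates 4 to 7, against 9.06% and 6.95% of all genes.

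**Figure D4:**
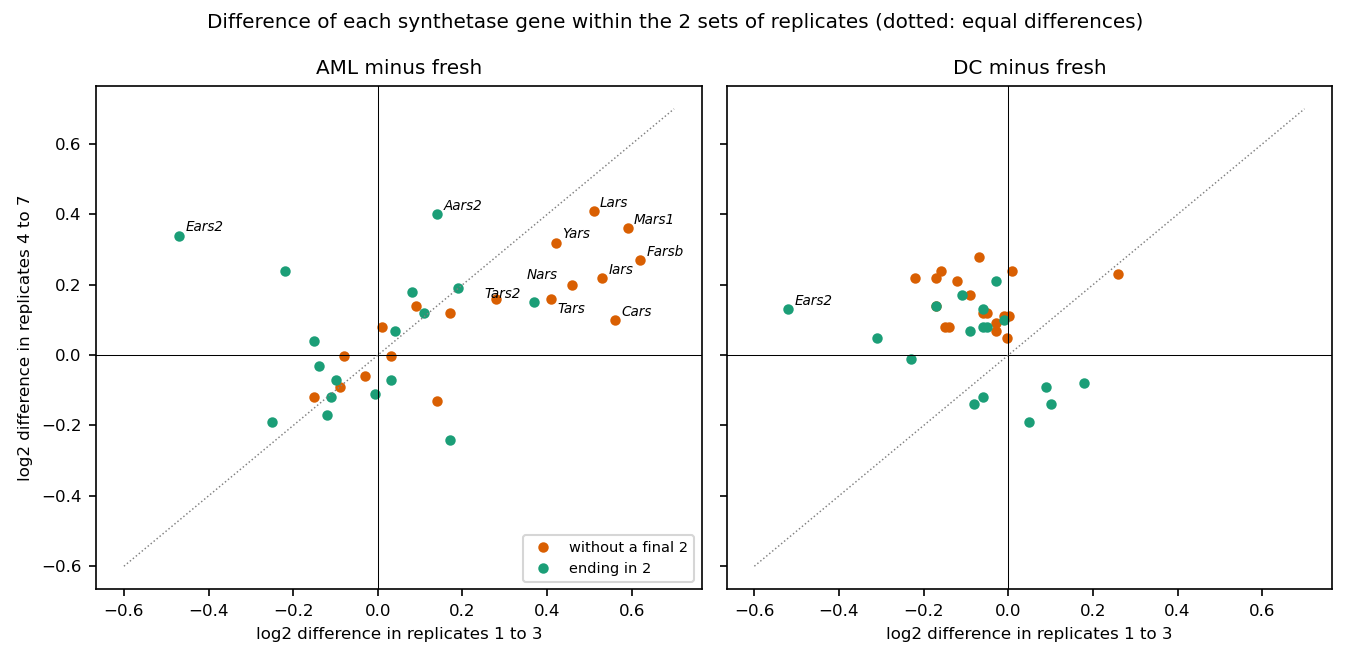
Log2 differences from fresh medium of the 35 synthetase genes within replicates 1 to 3 (horizontal) and within replicates 4 to 7 (vertical), for AML (left) and DC medium (right). Orange points are the 18 genes without a final 2, green points the 17 ending in 2, and the dotted line marks equal differences. On the left *Mars1* is at 0.59 and 0.36 and *Cars* at 0.56 and 0.10, and on the right all 18 orange points are above 0 on the vertical axis.

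AML replicates 4 and 5 were the highest AML arrays in the mean of the genes without a final 2, at 0.30 and 0.41, while AML replicate 7 was the lowest at 0.0075. Leaving out the highest arrays could only lower the AML mean of these genes, and the lowest arrays were not left out together. Without replicates 4 and 5 the median of these genes was 0.10 and that of the genes ending in 2 was -0.07, and 0 of 35 passed with limma, where 0.569% of all genes did. At an unadjusted p under 0.05 there were 3 of 35, against 10.5% of all genes. *Mars1* then differed by 0.31 (adjusted p = 0.546), *Lars* by 0.26, *Farsb* by 0.27 and *Yars* by 0.20, and *Wars2* by -0.26.

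Neighbouring steps of translation were compared through gene lists. Of 16 measured genes of 19 for other steps of transfer RNA charging, export and editing, 0 passed in AML against fresh medium with limma. At an unadjusted p under 0.05 there were 2, and the median difference was 0.06. Over all genes 2.77% passed in that comparison and 15.9% had an unadjusted p under 0.05, which also holds for the lists that follow. *Xpot*, which exports transfer RNA from the nucleus, had the largest difference of that list, 0.47 (SE 0.19, adjusted p = 0.213). It passed within replicates 1 to 3, at 0.76 (adjusted p = 0.00241), and differed by 0.26 (adjusted p = 0.482) within replicates 4 to 7. Of 16 measured cytosolic elongation and initiation factors 0 passed and 2 had an unadjusted p under 0.05, with a median of -0.0037. *Eif2b3*, which encodes a subunit of the initiation factor eIF2B, differed by 0.52 (adjusted p = 0.207) over all arrays, passed within replicates 1 to 3 at 0.66 (adjusted p = 0.0117), and differed by 0.42 (adjusted p = 0.234) within replicates 4 to 7. Of 10 mitochondrial translation factors 0 passed and 1 had an unadjusted p under 0.05, with a median of -0.06. In DC against fresh medium 8 of these 10 mitochondrial factors were above 0, where 8819 of 19505 genes were. The median there was 0.10, against -0.01 over all genes, and 0 passed with limma, where 0.0% of all genes did. In AML against DC medium 0 of the 10 were above 0, where 10116 of 19505 genes were. Their median was -0.15, against 0.0058 over all genes. With limma 0 passed, where 2.39% of all genes did, and 3 had an unadjusted p under 0.05, against 14.3% of all genes.

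Genes of the integrated stress response other than synthetases, to which ATF4 targets of amino acid supply belong, did pass in part. Of 25 measured members, 5 rose and 2 fell in AML against fresh medium and 18 did not pass, where 1.3% of all genes rose and 1.48% fell, with a median difference of 0.38 against -0.01 over all genes. *Chac1*, a glutathione-degrading enzyme and ATF4 target, ranged from 5.00 to 5.77 (median 5.33) in fresh, 5.11 to 5.85 (median 5.58) in DC and 5.49 to 7.39 (median 6.37) in AML medium, and rose 2.07-fold (log2 1.05, SE 0.22, adjusted p = 0.0119). *Cth*, which makes cysteine from cystathionine, ranged from 4.47 to 5.55 in fresh and from 5.09 to 7.17 in AML medium and rose 2.16-fold (log2 1.11, SE 0.27, adjusted p = 0.0249). The members that fell were *Vldlr*, a lipoprotein receptor, by 0.86 in log2 terms (SE 0.17, adjusted p = 0.00856), and *Ddit4*, an inhibitor of mTORC1 that also responds to hypoxia and glucocorticoid, by 0.60 (SE 0.14, adjusted p = 0.0212). *Atf4* itself, at 10.26 to 10.70 in fresh and 10.42 to 11.15 in AML medium, differed by 0.35 (SE 0.11, adjusted p = 0.0887), and *Asns*, asparagine synthetase and not a transfer RNA enzyme, by 0.59 (SE 0.18, adjusted p = 0.083). In AML against DC medium 10 members rose and 1 fell, where 1.13% of all genes rose and 1.26% fell. *Atf4* rose there by 0.42 (SE 0.11, adjusted p = 0.04) and *Asns* by 0.76 (SE 0.18, adjusted p = 0.0241). The list was drawn up with earlier results of these data known.

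The count of called stress response genes varied with the arrays included, and so did the count over all genes. The mean over the list was 0.31, 0.48, 0.19, 0.61, 0.73, 0.08 and 0.04 in AML replicates 1 to 7, so replicates 4 and 5 were again the highest and 6 and 7 the lowest. Instead of 7 called members and 541 called genes there were 2 and 249 without AML replicate 4, 2 and 218 without AML replicate 5, and 0 and 111 without both. Without fresh replicate 2 there were 3 and 299, and without AML replicate 7 there were 13 and 733. Within replicates 1 to 3 there were 13 members and 374 genes, within replicates 4 to 7 there were 0 and 32, and with the 2 sets as a block there were 16 and 1026. Markers of other lymphocytes moved in the same comparison: *Cd4* rose by 0.79 (SE 0.18, adjusted p = 0.015), 1 of 2 markers of CD4 T cells, whose mean was 5.99 to 6.68 in fresh and 6.32 to 7.28 in AML arrays. *Eomes*, which activated CD8 T cells also express, rose by 0.71 (SE 0.14, adjusted p = 0.00844), 1 of 3 NK cell markers, whose mean was 4.85 to 5.07 in fresh and 4.98 to 5.46 in AML arrays. The other NK markers were low, *Ncr1* at 3.14 to 3.66 in fresh and 3.24 to 3.60 in AML medium and *Klrb1c* at 2.68 to 3.21 and 2.73 to 3.29. Of the 2 B cell and 10 myeloid markers measured, 0 passed, where 2.77% of all genes did. The part of these markers in the synthetase and stress gene differences was not tested.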

How the data were processed

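The authors deposited log2 values for each transcript cluster, which RMA in oligo produced (submitters' processing notes, no versions). RMA subtracts background, quantile-normalizes the arrays and condenses probes, gives no signal over background, and compresses differences between low values. Of 22203 transcript clusters 19572 had 1 symbol in the platform annotation, 0 several and 2631 none, which left 19505 genes with the highest mean per symbol. All synthetase symbols were checked through gene identifiers, and 0 changed.

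Differences were fitted with limma 3.58.1 in R 4.3.3 over all genes and all 21 arrays in 1 model, without covariates. P-values were two-sided, Benjamini-Hochberg adjustment covered all genes, and genes under 0.05 were called. The script was tested on simulated data. The number of arrays limits precision, with a median standard error of 0.0937.

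Every synthetase gene is named. Full statistics are given for the 8 genes without a final 2 and the 5 ending in 2 with the largest differences between AML and fresh medium. From other lists at most 4 called genes with the smallest adjusted p are named, with Atf4, Asns and the scaffold genes fixed by name. Xpot, Eif2b3, Cd4, Eomes and genes counted within sets of replicates were named after their values were seen. The genes and lists were chosen with earlier results of these data known.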

Additional observations from a re-analysis of the deposited data

Results flagged for a closer look

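Each synthetase gene was checked in each medium, with the means of the 2 groups of synthetase genes, for an array far from the other 6, in 111 groups of 7 arrays. Chance alone picks about 1 in 20 groups, and 2 were picked. *Lars2*, the mitochondrial leucyl enzyme, was lowest in AML replicate 1 at 7.01, where the next AML array was at 7.30 and the highest at 7.41. *Tars2*, the mitochondrial threonyl enzyme, was highest in DC replicate 4 at 7.68, where the next DC array was at 7.47 and the lowest at 7.38.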

How the results depend on the processing

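Over 34 alternatives the median difference of the synthetase genes without a final 2 between AML and fresh medium ran from 0.10 to 0.22. That of the genes ending in 2 ran from -0.07 to 0.04, and 24 of 35 genes kept their sign. Many of the 34, such as leaving out a DC array or adding a block, cannot change these differences. The ranges and kept signs therefore rest on the other alternatives only. The labels do not say whether equal replicate numbers in different media mark paired samples. Between arrays of the same number, correlations of deviations ran from -0.109 to 0.364, and 13 of 21 were over 0.1. Of the arrays, 7 of 21 correlated best with an array of their own number. Whether the numbers pair samples is not known. With a replicate block, 4 synthetase genes passed in AML against fresh medium (*Farsb*, *Iars*, *Lars* and *Mars1*; 5.19% of all genes) and 2 against DC medium (*Iars* and *Tars2*; 4.02%). With the 2 sets of replicates as a block, an alternative added after the data were seen like those within a set, 4 passed (5.26%) and 1 against DC medium (*Iars*; 4.09%). Within replicates 1 to 3 there were 4 (1.92%) and 6 (1.63%). Leaving out 1 array, 0 synthetase genes passed in any comparison, where 1.12% to 3.98% of all genes passed in AML against fresh medium. For the other comparisons the shares without 1 array are not given. In the main fit they were 0.0% in DC against fresh medium and 2.39% in AML against DC medium. The other lists had 3 scaffold genes, 16 further charging genes, 16 cytosolic and 10 mitochondrial translation factors and 25 stress response genes. Of these, 7 genes were called in the main fit, all in the stress response list, where 2.77% of all genes were. The count was 20 with the replicate block (5.19% of all genes) and 19 with the sets as a block (5.26%). With the replicate block as a random effect it was 12 (share over all genes not given). It was 15 within replicates 1 to 3 (1.92%), 0 within replicates 4 to 7 (0.164%) and 0 without AML replicates 4 and 5 (0.569%). When 1 array was left out it ran from 2 to 13, and the share over all genes from 1.12% to 3.98%. The cause was not tested. RMA values carry no signal over background, so whether low genes such as *Ears2* were detected was not assessed.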
